A study of Mus musculus with 12 samples.

Results

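T cells of PERK-cKO mice were compared after allogeneic and after polyclonal stimulation, in the 6 of the series' 12 RNA-Seq libraries whose labels give the genotype PERK-KO. Libraries were chosen by those labels, 3 for each stimulation, and every library so labelled was used. PERK-cKO mice carry floxed alleles of Eif2ak3, the gene of PERK, and a Cre driven by the CD4 promoter, on the C57BL/6 background, so that deletion is directed to T cells and both stimulation groups share it. T cells came from spleen and were cultured for 3 days on antibodies to CD3 and CD28 (polyclonal) or for 4 days beside genetically foreign antigen-presenting cells (APCs; allogeneic), although a legend of the study gives 4 days for both. Day and the presence of APCs went with the stimulation in all 6 libraries, so that their parts in any difference cannot be told apart from it. Which strain gave the APCs, the age of the mice, and whether libraries came from separate mice are not given in the sources used here, and p-values then measure the spread between these libraries only. WT libraries, 3 for each stimulation, were used only to ask whether a difference depended on genotype.

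PERK is a kinase of the endoplasmic reticulum (ER) membrane that senses unfolded protein, phosphorylates the translation factor eIF2α and thereby raises translation of the transcription factor ATF4, which turns on genes of amino acid supply and tRNA charging. Other kinases, GCN2 among them, act on the same factor, so ATF4 can be made without PERK. ER-associated degradation (ERAD) removes misfolded protein through the SEL1L-HRD1 complex and its lectins. Antibodies to CD3 and CD28 engage the receptors of nearly every T cell, whereas in an allogeneic culture only T cells that recognize foreign MHC on APCs respond, with those APCs and their cytokines in the same dish.

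Levels of single genes are given as CPM, the share of a library's placed counts that a gene holds, on the usual CPM scale and after TMM scaling. Summed levels of lists are CPM without TMM scaling, so a member's level can lie above the sum of its list. A placed count is a count of a deposited entry whose printed exon positions lay on exons of exactly 1 gene of GRCm38. Totals in the 6 libraries ran from 3275023 to 4631908 counts, of which 1619634 to 2327503 were placed (50% over the 6). Before TMM scaling 3 placed counts corresponded to 1.29 to 1.85 CPM. CPM compares libraries and not genes, since only part of each gene's exons was covered. Differences are allogeneic minus polyclonal on the log2 scale from edgeR's quasi-likelihood test, with their standard error (SE) and Benjamini-Hochberg adjusted p over all 4159 genes tested, and a gene with an adjusted p under 0.05 was called. In bulk RNA, fewer cells of a type and less RNA per cell cannot be told apart.

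Eif2ak3 (ENSMUSG00000031668.14, GRCm38 chromosome 6, 70844515-70905245) was detected in all 6 libraries. It stood at 67.5, 71.5 and 74.9 CPM after allogeneic and at 51.8, 46.2 and 48.1 CPM after polyclonal stimulation. The groups did not overlap, and the difference was 0.54 (SE 0.144, adjusted p = 0.00409). Placed bases covered 9.34% of its exonic bases and none of exons 6 to 11 of the 17-exon transcript Eif2ak3-201. Which exons are floxed is not given in the sources used here, so this count does not check the deletion.

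The allogeneic and polyclonal libraries of PERK-cKO cells differed in 2139 genes. The first principal component held 86.8% of the variance and placed all 3 allogeneic libraries on one side and all 3 polyclonal libraries on the other. These made up 51.4% of the 4159 genes tested, 1151 higher (27.7%) and 988 lower (23.8%) after allogeneic stimulation. The median difference over all tested genes was 0.003, and in 2429 genes (58.4%) the CPM of the 2 groups did not overlap. The large differences were mostly increases: 896 called genes differed by at least 1 on the log2 scale, 659 of them higher and 237 lower, and 401 by at least 2. A gene could pass the filter on low counts through 1 group only, which then favoured its direction. With at least 10 counts in every library, 1679 of 3383 genes were called, 852 higher and 827 lower.

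**Figure D1:**
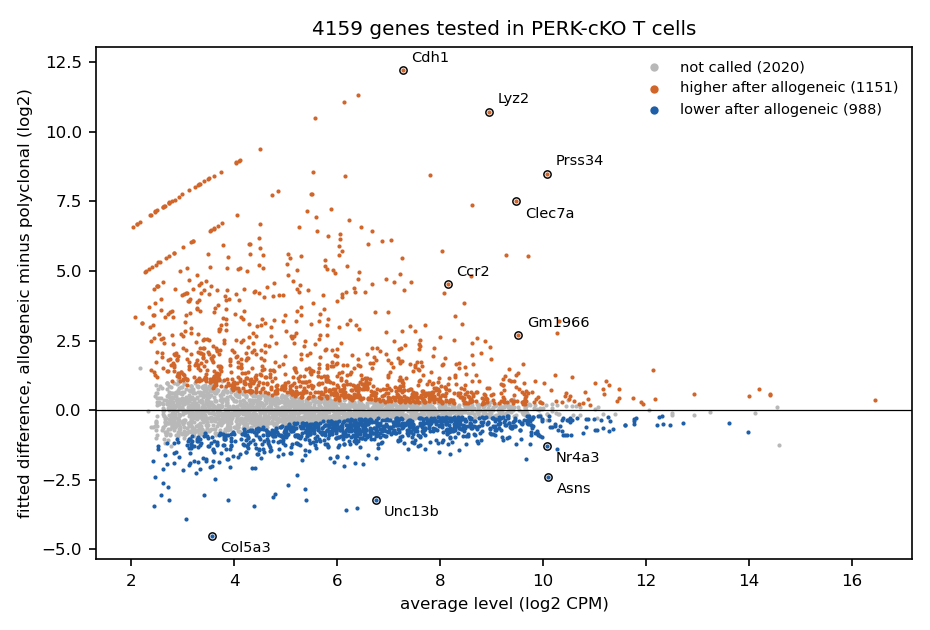
Fitted difference (log2, allogeneic minus polyclonal) against average level (log2 CPM) for the 4159 genes tested in PERK-cKO T cells, with called genes in orange (1151 higher) and blue (988 lower), uncalled genes in grey and a few named genes ringed. Differences larger than 5 in size are all increases, and the straight diagonal rows at upper left are genes with very few or no counts in the polyclonal libraries, whose fitted values are no bounds.

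The largest increases were of genes that the polyclonal libraries hardly held. Cdh1, which encodes the adhesion protein E-cadherin, stood at 299.7, 317.0 and 302.2 CPM in the allogeneic libraries and had no count in any polyclonal library. It was at least 165-fold higher against a floor of 3 counts per library, taken after TMM scaling as for the bounds that follow. Met, the receptor of hepatocyte growth factor, stood at 159.0, 160.8 and 179.0 CPM against 0 (at least 87.3-fold), and the collagenase gene Mmp13 at 110.2, 175.6 and 127.6 CPM against 0 (at least 60.5-fold). These genes were thus read in every allogeneic library and in no polyclonal library. Genes at or near 0 in the polyclonal libraries passed the filter on low counts only through the allogeneic ones, which fixed their direction. Lyz2, the lysozyme of macrophages and granulocytes, stood at 864.0, 1075.0 and 1018.0 CPM against 0, 1.22 and 0.523 CPM. The ratio of counts summed over each group was 1890, with an interval of 646 to 9160 that covers counting error only. Also among the 10 largest increases were Gm6522, Lilra6, Cd300lb, Tgfbi and Rnase12, each at 0 in the polyclonal libraries and at least 46.2, 21.5, 15.3, 15 and 14.3-fold higher.

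The largest decreases were smaller. Col5a3, a fibrillar collagen chain, stood at 0.871, 1.53 and 0 CPM after allogeneic against 19.6, 22.5 and 20.9 CPM after polyclonal stimulation (difference -4.52, SE 0.492, adjusted p = 4.6e-07). Unc13b, a factor of vesicle priming, stood at 17.9, 16.3 and 28.5 CPM against 201.6, 184.0 and 190.3 CPM (-3.23, SE 0.166, adjusted p = 1.54e-11). Wnt10b, a secreted WNT ligand, stood at 6.97, 11.2 and 4.95 CPM against 69.1, 86.8 and 66.9 CPM (-3.23, SE 0.244, adjusted p = 3.68e-09). The groups do not overlap because these genes were chosen among those without overlap. Col5a3 also passed the filter on low counts only through the polyclonal libraries, which fixed its direction. Cth, the cystathionine lyase that makes cysteine, fell by 3.25 on the log2 scale (SE 0.4, adjusted p = 2.24e-06). Slc17a6, Osr2, Lad1, Dnah12, Spata7 and Frrs1l completed the 10, with differences of -3.91, -3.59, -3.53, -3.47, -3.13 and -3.06.

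Macrophage and monocyte markers were higher after allogeneic stimulation. Of the list's 25 placed members 19 passed the filter on low counts, 12 of them only through the allogeneic libraries, where they are high. All 19 were higher, beside 27.7% of all genes, with a median difference of 5.54 (4.17 with the 3 genes at 0 in the polyclonal libraries set at their bound), but for those 12 the filter fixed the direction, so that this count is a description only. The summed level of all placed members ran from 6067 to 6323 CPM against 129.0 to 147.8 CPM. Clec7a, the β-glucan receptor Dectin-1, stood at 1284, 1611 and 1361 CPM against 9.37, 7.29 and 6.27 CPM (7.51, SE 0.155, adjusted p = 9.72e-17). Spi1, the transcription factor PU.1 of myeloid cells, stood at 107.2, 112.8 and 109.6 CPM against 0.892, 2.43 and 1.05 CPM, and Gpnmb, a glycoprotein of macrophages, differed by 5.73. C1qc, a complement chain made by tissue macrophages, stood at 24.8, 21.4 and 24.2 CPM against 0, 0.607 and 0 CPM. Cd300lb was at 0 in every polyclonal library.

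Basophil and mast cell markers were higher for 11 of 12 tested members (median 5.51, or 5.22 with the gene at 0 at its bound), 5 of which passed the filter only through the allogeneic libraries, beside 27.7% of all genes. The summed level of the 15 placed members was 5780 to 6758 CPM against 142.2 to 156.7 CPM. Csf2rb and Csf2rb2 count in this list and in that of macrophages and monocytes, among the members of highest level in each. The sums of these lists therefore share counts and are not separate signals. Prss34, a basophil protease, stood at 2288, 2121 and 2069 CPM against 4.02, 7.90 and 6.27 CPM (8.51, SE 0.152, adjusted p = 1.49e-17), with no overlap. Fcer1a, the IgE-binding chain of the high-affinity IgE receptor, differed by 5.48 and Hdc, which makes histamine, by 4.61. All 4 placed neutrophil markers passed the filter only through the allogeneic libraries and were thus bound to be higher (median 7.89, or 6.42 at the bound; sum 957.3 to 1048 CPM against 5.56 to 6.87 CPM). Ctsg, the granule protease cathepsin G, stood at 729.8, 871.0 and 746.3 CPM against 5.80, 3.64 and 4.18 CPM, and the neutrophil collagenase gene Mmp8 at 133.8, 140.4 and 144.3 CPM against 0, 0 and 1.05 CPM. These genes, too, did not overlap between the groups.

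B cell and platelet markers were also higher, with sums below those of the lists above, and the counts that follow stand beside 27.7% higher and 23.8% lower of all genes. The 4 placed B cell markers, 2 of which passed the filter only through the allogeneic libraries, were higher (median 3.53, sum 236.3 to 282.9 CPM against 36.7 to 49.0 CPM), among them Ms4a1, the gene of CD20, at 167.3, 141.9 and 142.4 CPM against 11.2, 4.25 and 5.23 CPM. The 3 placed platelet markers, 1 of which passed in that way, were higher (sum 445.3 to 526.3 CPM against 20.6 to 27.8 CPM), with Itga2b, an integrin of platelets and basophils, 4.30 and Vwf, the von Willebrand factor, 4.25 higher on the log2 scale. Dendritic cell markers divided, 2 higher and 1 lower of 3, the latter being Irf8, and NK cell markers divided as well, 1 higher and 1 lower of 4. Of 5 stromal and endothelial markers tested of 14 placed, all were higher (median 1.87), 1 of them tested only through the allogeneic libraries, a list that also holds Thy1 and Vwf. Erythroid markers gave 2 higher and 1 lower of 3, and their sum, nearly all of it Tfrc, was lower after allogeneic stimulation (3017 to 3109 CPM against 3574 to 4327 CPM), but without PERK-cKO allogeneic replicate 1 or replicate 2 the count was 0 higher and 1 lower. Of 2 plasma cell genes 1 was higher. Of these lists, 2 plasma cell, 1 dendritic, 2 NK and 2 erythroid members passed the filter through 1 group only. These sums stand beside every result that follows, and their part in those results was not tested.

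**Figure D2:**
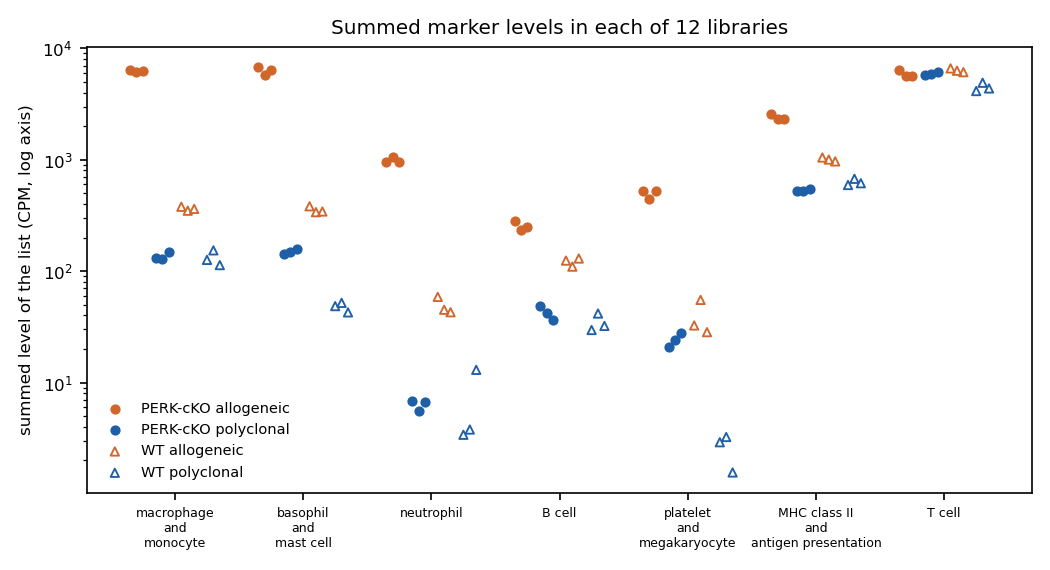
Summed CPM without TMM scaling (log axis) of 7 marker lists in each of the 12 libraries, with PERK-cKO as filled circles, WT as open triangles, allogeneic in orange and polyclonal in blue. Macrophage and monocyte markers reach 6067 to 6323 CPM in the PERK-cKO allogeneic libraries, 348.3 to 378.1 CPM in the WT allogeneic ones and at most 153.5 CPM in any polyclonal library, while T cell markers lie between 4132 and 6600 CPM in all 12.

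The T cell label was checked on 7 markers. Their summed level was 5650 to 6365 CPM after allogeneic and 5779 to 6112 CPM after polyclonal stimulation, so the ranges overlapped. Thy1, a surface glycoprotein of T cells, stood at 4465, 4123 and 4061 CPM against 3564, 3384 and 3420 CPM, and was the 1 member that rose (0.29, adjusted p = 0.00723). Lck, the kinase that starts T cell receptor (TCR) signalling, stood at 1066, 1050 and 948.8 CPM against 1189, 1137 and 1077 CPM (-0.15, adjusted p = 0.142), with no overlap but a difference that missed the threshold. Of the other 5, 4 were lower, beside 23.8% of all genes, among them Cd5, Cd6 and Cd8b1, but 2 members, Cd6 and Cd8b1, passed the filter only through the polyclonal libraries, which fixed their direction. Lat differed by -0.05 (adjusted p = 0.664). The CD3 chains, the TCR constant chains, Cd4 and Cd8a were not analysed here because no entry was placed on them.

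Genes of MHC class II and antigen presentation were higher in 7 of 8 members (median 2.54), beside 27.7% of all genes, 1 member having passed the filter only through the allogeneic libraries, with a summed level of 2324 to 2547 CPM against 521.1 to 541.3 CPM. H2-DMa, a chain of the chaperone that loads peptide on class II, stood at 875.7, 834.2 and 788.4 CPM after allogeneic against 181.1, 165.8 and 167.8 CPM after polyclonal stimulation (2.28, SE 0.0913, adjusted p = 5.73e-13). H2-Eb1, a class II β chain, stood at 318.0, 264.5 and 321.4 CPM against 37.9, 35.8 and 38.2 CPM (3.01, SE 0.127, adjusted p = 9.91e-13). Ctss, the protease cathepsin S that trims the invariant chain, stood at 737.2, 742.3 and 672.0 CPM against 140.1, 105.7 and 108.2 CPM. In all 3 genes the allogeneic libraries lay far above the polyclonal ones. Rfxap, a subunit of the factor that binds class II promoters, stood at 103.3, 100.6 and 89.8 CPM against 101.7, 108.1 and 115.0 CPM and was not called (-0.14, adjusted p = 0.352).

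Interferon-stimulated genes were mostly higher after allogeneic stimulation, whereas 2 of the 3 STAT and IRF factors tested with them were lower. Of 38 members tested, 8 of which passed the filter only through the allogeneic libraries, 32 were higher and 2 lower, beside 27.7% and 23.8% of all genes, and 4 were not called, with a median difference of 1.70 beside 0.003 over all genes. Their summed level ran from 13180 to 13610 CPM against 6379 to 7471 CPM. Among sensors and effectors, Ddx58, which encodes the RNA sensor RIG-I, stood at 1200.0, 1166 and 1187 CPM against 362.2, 394.7 and 367.0 CPM (1.66, SE 0.0833, adjusted p = 1.12e-11). Irgm2, an immunity-related GTPase, stood at 728.0, 854.1 and 776.6 CPM against 226.6, 212.6 and 222.7 CPM (1.83, SE 0.0921, adjusted p = 1.12e-11). Oas3, an oligoadenylate synthase, rose less, by 0.58 (SE 0.093, adjusted p = 4.34e-05). No library of either group fell within the range of the other for these genes.

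Members with low polyclonal levels showed the largest differences. Ifi208 and Ifi213, of the DNA-sensing PYHIN family, differed by 6.17 and 7.75: Ifi208 stood at 119.8, 135.8 and 131.9 CPM against 0.892, 4.25 and 0.523 CPM, and Ifi213 at 44.4, 55.1 and 53.3 CPM against 0, 0.607 and 0 CPM. The chemokine gene Cxcl11, whose product attracts activated T cells, stood at 9.59, 6.13 and 9.29 CPM against 0, at least 3.36-fold higher, and Trim30c was at least 5.60-fold higher. Gm1966, which resembles the very large interferon-inducible GTPases, stood at 1174, 1397 and 1230 CPM against 190.9, 201.6 and 198.1 CPM (2.69, SE 0.0949, adjusted p = 1.18e-13). PYHIN, Trim30 and Gm1966-type genes lie among near-identical copies, so their counts are uncertain. In antigen processing, Psmb9 and Tap2, of the immunoproteasome and the peptide transporter, rose by 0.52 and 0.75, and Psmb8 differed by 0.16 (adjusted p = 0.096). The 2 members that fell were these factors: Stat3, the signal carrier of IL-6-type cytokines, at 171.2, 186.9 and 196.9 CPM against 282.8, 303.0 and 333.0 CPM (-0.73, SE 0.102, adjusted p = 9.26e-06), and Irf8 at 624.8, 675.4 and 617.5 CPM against 851.6, 877.0 and 918.1 CPM (-0.46, SE 0.0826, adjusted p = 0.000126).

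Promoters of interferon-stimulated genes were searched on both strands for the letters of the interferon-stimulated response element, GAAA, any 2 bases and GAAA again. Windows ran from 250 bases before to 50 bases after each RefSeq gene start (GRCm38.p6). Of the 28 tested members with a window, 15 held it (53.6%), beside 3.44% of all 32851 windows and 4.22% of the 2988 tested genes with a window. Among members that rose, 13 of 23 held it, and of the 2 that fell, neither did. Ddx58 (chr4:40239776-40240075, minus strand), Irgm2 (chr11:58214727-58215026, plus strand) and Ifi208 (chr1:173673415-173673714, plus strand) are shown because the first and second were read well in every polyclonal library and the third hardly at all. Capitals mark the motif on either strand, and a match is a description, not a site or a cause.
Ddx58: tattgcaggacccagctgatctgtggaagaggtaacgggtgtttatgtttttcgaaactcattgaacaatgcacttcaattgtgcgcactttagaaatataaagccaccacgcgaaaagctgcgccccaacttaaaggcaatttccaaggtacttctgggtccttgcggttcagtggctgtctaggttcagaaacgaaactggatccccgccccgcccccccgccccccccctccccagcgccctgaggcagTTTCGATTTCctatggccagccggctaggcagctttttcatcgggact
Irgm2: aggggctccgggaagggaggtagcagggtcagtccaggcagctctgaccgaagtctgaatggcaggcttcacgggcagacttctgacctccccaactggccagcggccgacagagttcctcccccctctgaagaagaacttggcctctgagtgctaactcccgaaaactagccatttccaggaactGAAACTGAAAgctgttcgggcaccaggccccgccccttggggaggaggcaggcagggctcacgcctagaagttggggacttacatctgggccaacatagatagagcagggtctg
Ifi208: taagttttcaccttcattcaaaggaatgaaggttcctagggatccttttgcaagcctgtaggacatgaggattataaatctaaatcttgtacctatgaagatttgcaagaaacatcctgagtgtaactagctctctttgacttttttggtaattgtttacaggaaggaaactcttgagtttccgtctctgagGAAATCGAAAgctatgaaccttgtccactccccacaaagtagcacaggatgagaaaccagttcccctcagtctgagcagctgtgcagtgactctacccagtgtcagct

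Genes of the ATF4 and integrated stress response list were mostly lower after allogeneic stimulation, although the labels give both groups as PERK-KO. Of 11 members tested, 8 were lower and 2 higher, beside 23.8% and 27.7% of all genes, and 1 was not called, with a median of -0.83, and the summed level of the list was 2441 to 2618 CPM against 5543 to 5865 CPM. Asns, asparagine synthetase (chromosome 6, 7675169-7693254, with all its exonic bases covered), stood at 372.9, 317.5 and 354.9 CPM after allogeneic against 1938, 1810.0 and 1778 CPM after polyclonal stimulation. No allogeneic library came near the lowest polyclonal one, and the difference was -2.40 (SE 0.0906, adjusted p = 2.6e-13). The tRNA synthetase genes moved the same way: Gars (glycine) stood at 175.1, 196.0 and 160.4 CPM against 478.2, 504.1 and 460.1 CPM (-1.44, SE 0.0976, adjusted p = 8.24e-10), and Tars (threonine) at 953.7, 1008 and 935.8 CPM against 1853, 1718 and 1784 CPM (-0.89, SE 0.0802, adjusted p = 4.25e-08).

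Amino acid transporters of the list divided. Slc7a11, the cystine-importing chain of system xc- (chromosome 3, 49892526-50443614), stood at 107.6, 109.3 and 118.9 CPM after allogeneic against 20.97, 19.4 and 22.0 CPM after polyclonal stimulation (2.42, SE 0.153, adjusted p = 3.06e-10). Its partner chain Slc3a2 moved the other way, at 714.1, 663.7 and 746.9 CPM against 1067, 1105 and 1028 CPM (-0.59, SE 0.083, adjusted p = 1.01e-05). The glutamine transporter Slc1a5 and Aldh18a1, of proline synthesis, differed by -1.23 and -0.84. Eif2ak4, the gene of GCN2, stood at 41.8, 43.4 and 39.6 CPM against 68.7, 66.2 and 75.8 CPM (-0.75, SE 0.15, adjusted p = 0.00037). Ppp1r15a, which encodes GADD34 and reverses eIF2α phosphorylation, was the second member that rose (0.42, adjusted p = 0.034), a call lost under several alternatives: adjusted p = 0.0695 by DESeq2 and 0.132 without PERK-cKO allogeneic replicate 1.

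Promoters of these genes were searched in the same windows for TGATGNAAN, the letters of the C/EBP-ATF response element. It stood in 6 of the 10 members with a window (60.0%), beside 3.95% of all windows and 2.84% of the tested genes. Of members that fell, 4 of 7 held it, and of those that rose, 1 of 2, Slc7a11. Asns (chr6:7693160-7693459, minus strand), Tars (chr15:11399609-11399908, minus strand) and Slc7a11 (chr3:50443564-50443863, minus strand) are shown because the first and second fell and the third rose with the same letters in its window. Capitals mark the motif on either strand, which Slc7a11 holds in 2 places that do not overlap.
Asns: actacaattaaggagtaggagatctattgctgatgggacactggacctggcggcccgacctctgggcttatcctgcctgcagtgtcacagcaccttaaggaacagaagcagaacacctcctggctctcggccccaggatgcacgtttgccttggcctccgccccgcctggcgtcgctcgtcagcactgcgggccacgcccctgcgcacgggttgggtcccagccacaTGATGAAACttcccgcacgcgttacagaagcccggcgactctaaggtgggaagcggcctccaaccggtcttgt
Tars: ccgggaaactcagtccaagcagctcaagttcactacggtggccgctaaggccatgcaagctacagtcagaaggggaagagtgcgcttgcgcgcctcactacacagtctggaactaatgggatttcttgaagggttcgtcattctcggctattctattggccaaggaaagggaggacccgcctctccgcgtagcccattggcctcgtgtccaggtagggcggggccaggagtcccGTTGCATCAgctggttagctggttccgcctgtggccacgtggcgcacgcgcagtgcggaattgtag
Slc7a11: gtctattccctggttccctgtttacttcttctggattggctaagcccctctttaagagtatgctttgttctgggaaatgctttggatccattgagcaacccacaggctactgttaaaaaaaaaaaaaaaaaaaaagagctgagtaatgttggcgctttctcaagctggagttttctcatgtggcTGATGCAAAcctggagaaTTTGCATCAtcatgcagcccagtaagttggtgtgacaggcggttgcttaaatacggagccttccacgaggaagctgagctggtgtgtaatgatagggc

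Of the 10 ERAD genes that the study followed, 5 were placed, and 2 of these were higher and none lower, where 51.4% of all genes were called. Edem1, a lectin that passes misfolded glycoproteins to ERAD, stood at 222.2, 196.6 and 201.3 CPM after allogeneic against 105.7, 88.1 and 96.7 CPM after polyclonal stimulation (1.09, SE 0.114, adjusted p = 2.78e-07), with no overlap. Os9, another such lectin, stood at 169.0, 157.2 and 162.9 CPM against 129.8, 135.4 and 137.0 CPM (0.28, adjusted p = 0.0319), a call lost under DESeq2 (adjusted p = 0.0541), under library-size or T cell marker scaling and without any of PERK-cKO allogeneic replicates 1 and 3 and polyclonal replicates 1, 2 and 3. Sel1l, the adaptor of the HRD1 ligase, stood at 200, 163.9 and 218.0 CPM against 166.4, 189.5 and 197.6 CPM (0.07, SE 0.119, adjusted p = 0.64). Its groups overlapped, as did those of Man1b1, a mannosidase of the pathway (-0.07, SE 0.0901, adjusted p = 0.53), and Edem3 (-0.62, SE 0.544, adjusted p = 0.361), which had between 1.02 and 12.4 CPM. Edem3 became called without PERK-cKO allogeneic replicate 3 (-1.76, adjusted p = 0.0182). These genes were chosen on libraries of this series, so their count is not independent evidence of a direction.

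Among 8 other ERAD and p97 genes, a list that also holds Edem1, 4 were higher and 2 lower (median 0.19), a share called that lies above the 51.4% of all genes. The ubiquitin ligase March6 rose by 0.34 (adjusted p = 0.0018), and the p97 cofactor Faf1 fell by 0.72 on the log2 scale (adjusted p = 0.0123). Without PERK-cKO polyclonal replicate 2 or replicate 3 the list had 2 higher and 1 lower. Of 11 ER chaperones and folding genes, 3 were higher and 1 lower (median 0.10), a share below it, and 1 member passed the filter only through the polyclonal libraries, as did Edem3 above. Pdia4, a disulfide isomerase, stood at 1653, 1676 and 1640.0 CPM against 1318, 1168 and 1264 CPM (0.41, SE 0.0804, adjusted p = 0.000362). Hyou1, an ER chaperone, stood at 332.0, 330.3 and 367.9 CPM against 401.0, 426.3 and 440.2 CPM (-0.30, SE 0.0891, adjusted p = 0.00893, but 0.0524 without PERK-cKO polyclonal replicate 3). Both genes were separated between groups. Without PERK-cKO polyclonal replicate 2 the chaperone list had 1 higher and 1 lower, without polyclonal replicate 3 it had 2 and 0, and without allogeneic replicate 2 it had 2 and 1.

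**Figure D3:**
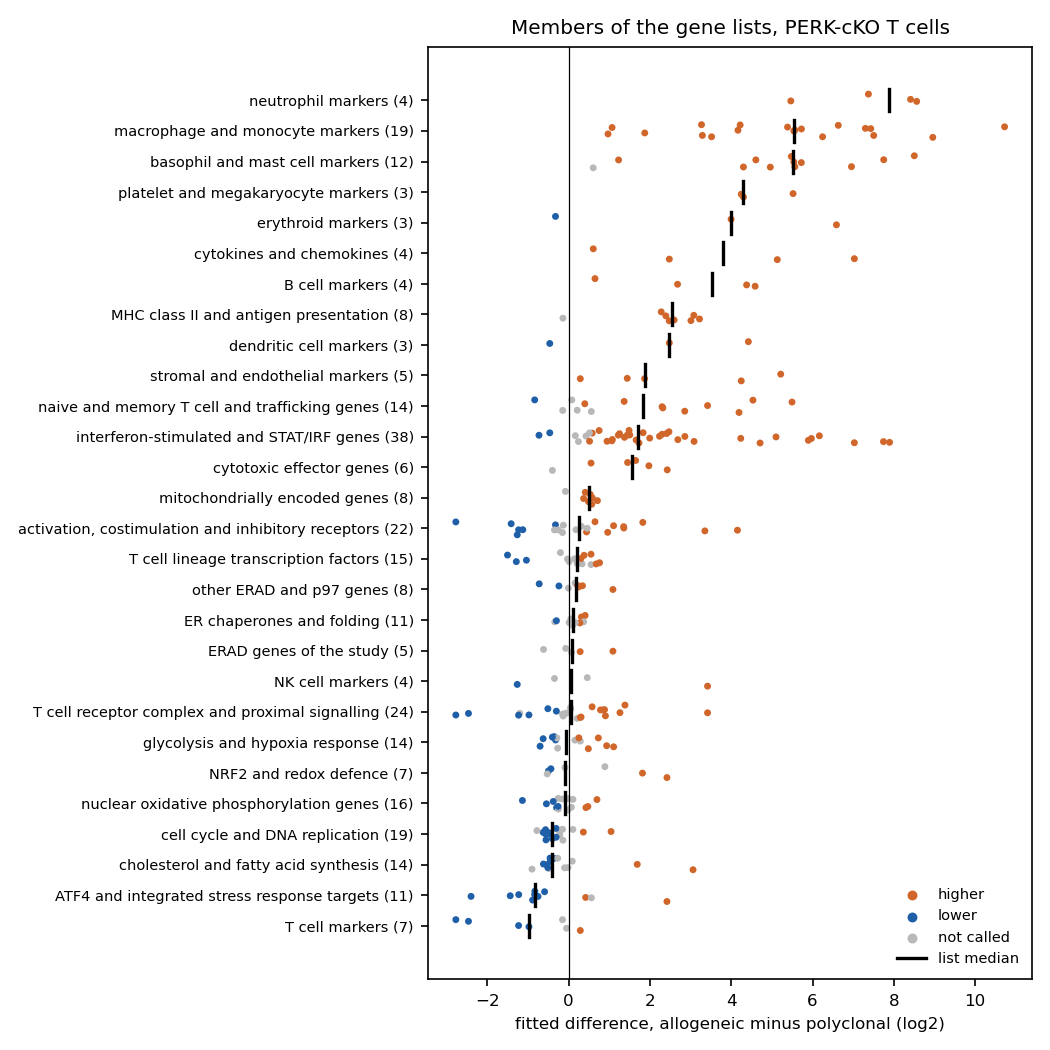
Fitted differences (log2, allogeneic minus polyclonal) of the tested members of 28 gene lists with at least 3 tested members, in PERK-cKO T cells, with members higher in orange, lower in blue, uncalled in grey and the list median as a black bar (number tested in brackets). Medians run from 7.89 for neutrophil markers to -0.98 for T cell markers, and the ATF4 list lies at -0.83 with Slc7a11 alone far to the right.

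In the T cell receptor complex and its proximal signalling, members moved both ways: of 24 tested, 10 were higher and 6 lower, beside 27.7% and 23.8% of all genes (median 0.05, and -0.01 when libraries were scaled to T cell marker genes, with 9 higher and 8 lower). The filter favoured the direction of 4 of these members, as 3 passed only through the polyclonal and 1 only through the allogeneic libraries. Cd5, a brake on receptor signalling, stood at 181.2, 163.9 and 161.6 CPM after allogeneic against 405.0, 388.1 and 398.4 CPM after polyclonal stimulation (-1.23, SE 0.0935, adjusted p = 4.02e-09). Cd8b1, the CD8 β chain and 1 of these 3, was low in both groups, at 3.05, 3.57 and 3.72 CPM against 23.6, 18.8 and 14.6 CPM (-2.46, SE 0.365, adjusted p = 1.82e-05). Among members that rose, Sla, an adaptor that lowers surface TCR, stood at 747.2, 835.7 and 745.0 CPM against 457.2, 402.0 and 383.2 CPM (0.91, SE 0.0924, adjusted p = 2.07e-07). Sit1, an inhibitory adaptor, differed by 1.39 and Txk, a Tec kinase, by 3.42. Ptprc, the phosphatase CD45, fell by 0.51 on the log2 scale (adjusted p = 6.83e-05).

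Activation, costimulation and inhibitory receptors gave 9 higher and 6 lower of 22 (median 0.25), beside 27.7% and 23.8% of all genes, with 3 members that passed the filter only through the allogeneic and 2 only through the polyclonal libraries. Tnfrsf9, the costimulatory receptor 4-1BB, stood at 235.3, 299.7 and 252.7 CPM after allogeneic against 630.3, 567.2 and 521.8 CPM after polyclonal stimulation (-1.13, SE 0.105, adjusted p = 6.36e-08). Btla, an inhibitory receptor, stood at 102.4, 113.8 and 125.7 CPM against 265.4, 325.5 and 318.4 CPM (-1.41, SE 0.116, adjusted p = 1.11e-08). Havcr2, the gene of TIM-3, was higher, at 257.5, 257.8 and 273.7 CPM against 184.2, 214.4 and 183.5 CPM (0.44, SE 0.1, adjusted p = 0.00124). Each of these receptors was separated between the groups. Cd86, a costimulatory ligand carried mainly by APCs, stood at 48.4, 62.8 and 58.8 CPM against 1.78, 3.04 and 4.71 CPM (4.15). The β chain of the IL-2 receptor, Il2rb, differed by -0.13 (SE 0.0828, adjusted p = 0.206), and Tfrc, the transferrin receptor of dividing cells, by -0.32 (adjusted p = 0.0094, but 0.0513 without PERK-cKO polyclonal replicate 1).

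Of 15 lineage and differentiation factors, 5 were higher and 3 lower (median 0.21, with 3 higher and 4 lower under T cell marker scaling, and 3 higher and 3 lower without PERK-cKO polyclonal replicate 3), a share called near the 51.4% of all genes. The members that fell were Nr4a3, Nr4a1 and Stat5a. Nr4a3, a nuclear receptor induced by TCR signals, stood at 609.5, 640.2 and 640.4 CPM after allogeneic against 1470.0, 1626 and 1515 CPM after polyclonal stimulation (-1.29, SE 0.0823, adjusted p = 3.55e-10). Its relative Nr4a1 stood at 7.84, 6.13 and 14.9 CPM against 15.6, 39.5 and 26.1 CPM (-1.50, SE 0.37, adjusted p = 0.00231), and Stat5a, which carries IL-2 signals, differed by -1.04 (adjusted p = 3.52e-05). All 3 were lower in every allogeneic library, by a narrow margin for Nr4a1. Ikzf2, the gene of Helios, differed by 0.76 (adjusted p = 9.78e-05) and Zeb2, a repressor of terminal effector cells that myeloid cells also express, by 0.55 (adjusted p = 0.00069).

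Trafficking and memory genes were higher in 9 of 14 tested members, 3 of which passed the filter only through the allogeneic libraries, and lower in 1 (median 1.83), beside 27.7% and 23.8% of all genes. Ccr2, the receptor of the monocyte chemokine CCL2, stood at 508.0, 587.1 and 535.1 CPM after allogeneic against 33.0, 17.6 and 17.8 CPM after polyclonal stimulation (4.54, SE 0.165, adjusted p = 1.6e-13). This receptor is also known from monocytes, whose markers differed as given above. The member that fell was Itgal, an integrin chain of LFA-1, at 138.1, 144.0 and 153.6 CPM against 220.4, 270.9 and 286.0 CPM (-0.83, SE 0.114, adjusted p = 7.33e-06). Il7r, the IL-7 receptor of naive and memory cells, differed by -0.15 (SE 0.0802, adjusted p = 0.14), and by -0.20 with an adjusted p of 0.0393 under T cell marker scaling.

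Cytotoxic effector genes were higher in 5 of 6 tested members (median 1.55), 1 of which passed the filter only through the allogeneic libraries, beside 27.7% of all genes. Srgn, the granule proteoglycan serglycin of cytotoxic and myeloid cells, stood at 6583, 6953 and 6323 CPM after allogeneic against 2996, 2165 and 2103 CPM after polyclonal stimulation (1.45, SE 0.117, adjusted p = 8.96e-09). The granzyme genes Gzme and Gzmd stood at 95.9, 109.3 and 76.2 CPM against 28.1, 37.0 and 25.6 CPM and at 11.8, 8.17 and 5.57 CPM against 0.892, 3.64 and 0.523 CPM. Granzymes d and e lie among close copies, so their counts are uncertain. The other members that rose were Lamp2 (1.98) and Zeb2 (0.55), which also counts among the differentiation factors. Gzmm was not called (-0.40, adjusted p = 0.51). The 4 tested cytokine and chemokine genes, 2 of which passed in that way, were higher (median 3.81, or 2.11 with Cxcl11 at its bound). Ccl22, a chemokine of dendritic cells and macrophages, stood at 792.9, 812.2 and 779.1 CPM against 145.4, 128.7 and 153.2 CPM (2.48, SE 0.0947, adjusted p = 3.08e-13), and Tnfsf14, the T cell cytokine LIGHT, at 394.3, 384.9 and 387.7 CPM against 280.6, 235.0 and 249.9 CPM (0.61, SE 0.093, adjusted p = 2.72e-05). Il1rn, the IL-1 receptor antagonist, stood at 20.9, 21.4 and 18.6 CPM against 0.446, 0.607 and 0.523 CPM. Interferon-γ, perforin and granzyme B were not analysed here because no entry was placed on them.

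**Figure D4:**
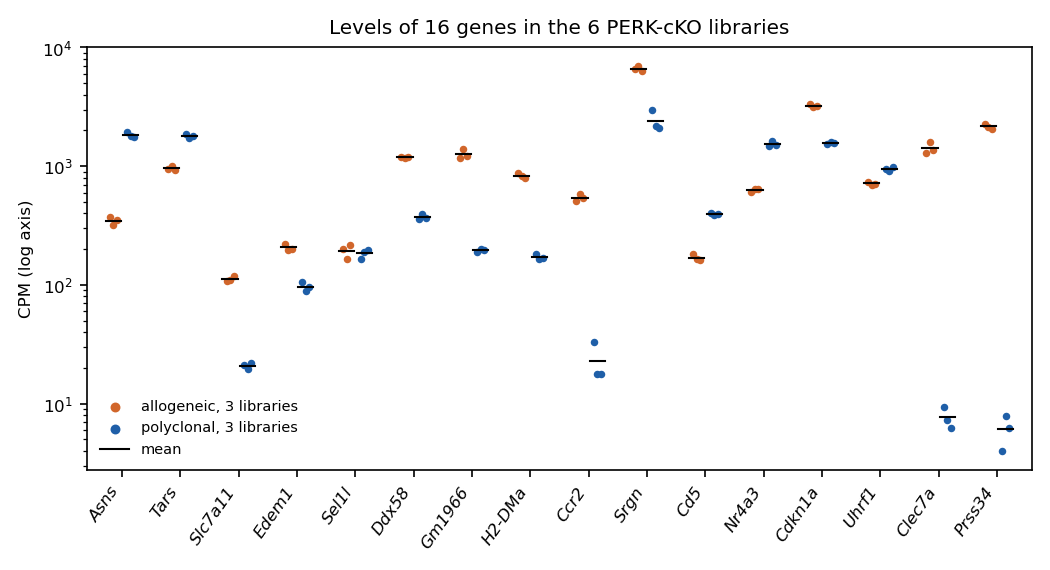
CPM (log axis) of 16 genes in the 6 PERK-cKO libraries, with each allogeneic library as an orange point, each polyclonal library as a blue point and the mean as a black bar. Sel1l is the gene whose groups overlap, Asns, Tars and Nr4a3 are lower after allogeneic stimulation, and Clec7a and Prss34 lie under 10 CPM in every polyclonal library.

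Of 19 cell cycle and DNA replication genes tested, 10 were lower and 2 higher after allogeneic stimulation (median -0.40), beside 23.8% lower and 27.7% higher of all genes, and 1 member passed the filter only through the polyclonal libraries. Uhrf1, which maintains DNA methylation in S phase, stood at 741.5, 697.4 and 712.8 CPM against 953.3, 911.6 and 977.1 CPM (-0.40, SE 0.0806, adjusted p = 0.000407). Dnmt1, the methyltransferase it guides, differed by -0.57 (SE 0.0924, adjusted p = 5.02e-05), and Ccne1, cyclin E1 of the G1/S transition, by -0.56 (SE 0.0893, adjusted p = 4.29e-05). The members that rose were Cdkn1a and Cdk6. Cdkn1a, the cell cycle inhibitor p21, stood at 3343, 3134 and 3204 CPM against 1545, 1593 and 1559 CPM (1.04, SE 0.0787, adjusted p = 3.67e-09), with every allogeneic library far above every polyclonal one. Cdk6 differed by 0.36 (adjusted p = 0.00323). The summed level of the list, in which Cdkn1a counts, was 6784 to 7261 CPM against 6424 to 7116 CPM, and these ranges overlapped.

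Metabolic lists held members that moved either way. Cholesterol and fatty acid genes gave 6 lower and 2 higher of 14 (median -0.41), a share called near the 51.4% of all genes, with 1 member that passed the filter only through the allogeneic and 2 only through the polyclonal libraries. Srebf2, the transcription factor of cholesterol synthesis, stood at 725.0, 667.3 and 727.7 CPM after allogeneic against 985.8, 1045 and 1057 CPM after polyclonal stimulation (-0.54, SE 0.082, adjusted p = 2.34e-05), and the desaturase gene Scd2 differed by -0.51 (adjusted p = 4.49e-05). Abca1, which exports cholesterol from the cell, was higher, at 87.6, 109.8 and 90.4 CPM against 29.9, 34.6 and 25.1 CPM (1.69, SE 0.165, adjusted p = 1.18e-07). Glycolysis and hypoxia genes gave 5 higher and 5 lower of 14 (median -0.06), beside 27.7% and 23.8% of all genes, and 1 member passed the filter only through the allogeneic libraries: the glycolytic enzymes Pfkp and Eno1 differed by -0.40 and -0.70, and Mxi1, a MYC antagonist, by 0.73. Without PERK-cKO polyclonal replicate 1 or allogeneic replicate 1 that list had 3 higher. NRF2 and redox genes gave 2 higher and 2 lower of 7, again near that share and with 1 member so passed, and with Me1, malic enzyme, at 34.4, 37.8 and 34.7 CPM against 9.81, 15.2 and 5.75 CPM (1.82) and Gclc, of glutathione synthesis, at -0.50 (adjusted p = 0.0113). Slc7a11 counts in this list as well, and without PERK-cKO allogeneic replicate 1 it had 3 higher and 0 lower.

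Of 8 mitochondrially encoded genes, which here are 6 respiratory chain genes and the 2 ribosomal RNAs, 7 were higher (median 0.51), beside 27.7% of all genes, with a summed level of 182200 to 202100 CPM against 141200 to 165300 CPM. The count was 4 higher by DESeq2 and without PERK-cKO polyclonal replicate 3. mt-Co1, a subunit of cytochrome oxidase, stood at 95020, 107000 and 100400 CPM against 90110, 72780 and 71330 CPM (0.37, SE 0.106, adjusted p = 0.0074, but 0.0508 without PERK-cKO polyclonal replicate 3), and mt-Cytb, of complex III, differed by 0.53 (SE 0.108, adjusted p = 0.000427). Polyclonal replicate 1 lay nearest to the allogeneic range. Of 16 nuclear oxidative phosphorylation genes, 3 were higher and 5 lower (median -0.09), a share called near the 51.4% of all genes, and 0 were higher under T cell marker scaling or without PERK-cKO polyclonal replicate 2, polyclonal replicate 3 or allogeneic replicate 2. Uqcrc1, a core subunit of complex III, stood at 783.8, 739.2 and 705.4 CPM against 990.3, 975.3 and 934.3 CPM (-0.38, SE 0.0819, adjusted p = 0.000788).

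Whether these differences depended on genotype was asked with an interaction term over all 12 libraries, which share the 6 used above. A positive term means a more positive allogeneic-minus-polyclonal difference in PERK-cKO than in WT cells. In WT cells, 1937 of 3985 genes were called (48.6%), and of 3840 genes tested in both genotypes 1128 were called in both, 891 of them in the same direction. The interaction was called for 1491 of 4402 genes (33.9%), 733 positive (16.7%) and 758 negative (17.2%). With libraries scaled by T cell markers instead, the median term over all genes moved by 0.51 and the split became 1650 positive and 183 negative, so the signs that follow are relative to the median gene. The 3 WT allogeneic libraries held 1412, 1615 and 2017 counts of Ddx3y, a Y-linked helicase gene, and the other 9 libraries 0. Their Trim30d and Gm15133 counts were 0, against 142 to 624 and 23 to 65 in every other library. They also held 348.3 to 378.1 CPM of macrophage and monocyte markers against the 6067 to 6323 CPM of the PERK-cKO allogeneic libraries. Sex or strain, APC share and genotype cannot be told apart in this term.

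Cell cycle genes had mostly negative terms: of 19, 16 were called negative and 2 positive (median -1.05), beside 17.2% and 16.7% of all genes. Under T cell marker scaling 12 were called negative and 2 positive (-0.54). In WT cells 15 of them were higher and 2 lower after allogeneic stimulation (median 0.62), where 48.6% of all genes were called in either direction. In PERK-cKO cells 2 were higher and 10 lower, beside 27.7% and 23.8% of all genes. Ccne1 differed by 1.07 in WT and by -0.56 in PERK-cKO cells (interaction -1.66, adjusted p = 1.14e-09), and Dnmt1 by 0.57 and -0.57 (interaction -1.17, adjusted p = 1.01e-06). Cdkn1a went the other way, with -0.75 in WT and 1.04 in PERK-cKO cells (interaction 1.77, adjusted p = 3.4e-11). Cyclin E1 and p21 transcripts thus moved in opposite directions in the 2 genotypes.

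Most genes of the ATF4 list were called lower in both genotypes. In WT cells 9 of 11 were (median -0.97), where 48.6% of all genes were called in either direction. In PERK-cKO cells 8 of 11 were, beside 23.8% of all genes. Asns differed by -2.73 in WT and -2.40 in PERK-cKO cells, an interaction of 0.30 that was not called (adjusted p = 0.0614). Slc7a11 was -0.50 in WT, not called there (adjusted p = 0.127), and 2.42 in PERK-cKO cells (interaction 2.90, adjusted p = 2.57e-08). Of the 11 terms, 5 were called positive and 2 negative (median 0.54), beside 16.7% and 17.2% of all genes. Under T cell marker scaling 7 were called positive and 0 negative, and the negative terms of Gars and Tars were no longer called. Interferon-stimulated genes had 16 called positive terms and 1 called negative of 37 (median 0.64), beside 16.7% and 17.2% of all genes. The positive ones include Trim30d, at 0 in the WT allogeneic libraries, and Gm1966. Gm1966 had 18, 25 and 17 counts in these libraries and 490, 471 and 495 in the WT polyclonal ones. MHC class II genes had 7 called positive and 1 called negative of 8 (median 1.84), beside the same shares. H2-Eb1 was among them, with 0.68 in WT and 3.01 in PERK-cKO cells. Of 19 macrophage and monocyte markers, 10 had called positive terms and 0 called negative, beside 16.7% and 17.2% of all genes, but 12 of the 19 reached the filter in PERK-cKO cells only through the allogeneic libraries, so this count is a description only. TCR signalling genes had 2 called positive and 11 called negative of 25 (median -0.38), beside 16.7% and 17.2% of all genes. That direction turned under T cell marker scaling (5 and 2, median 0.13). Sel1l, at -0.44 in WT and 0.07 in PERK-cKO cells, had a term of 0.49 (adjusted p = 0.019), and Edem1 one of 0.34 that was not called (adjusted p = 0.113).

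Among genes with a called term, an average log2 CPM of 3 or more and no overlap between the stimulations in at least 1 genotype, the 5 most positive terms belonged to Trim30d, Gm15133, Pilrb2, Mmp8 and C3, and the 5 most negative to Zan, Gzme, Scpep1os, Scg3 and Psg20. C3, the central complement protein, stood in WT cells at 13, 10 and 10 counts after allogeneic against 41, 48 and 55 after polyclonal stimulation, and in PERK-cKO cells at 261, 253 and 220 against 4, 8 and 3 (interaction 7.51, SE 0.387, adjusted p = 1.65e-12). Its direction was opposite in the 2 genotypes. Zan, a sperm adhesion gene, had 175, 140 and 168 counts in the WT allogeneic libraries and 0 to 6 in each of the other 9 (interaction -6.54, SE 1.73, adjusted p = 0.00528). Fitted terms of genes at or near 0 in a group depend on the prior count and are no bounds.

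**Figure D5:**
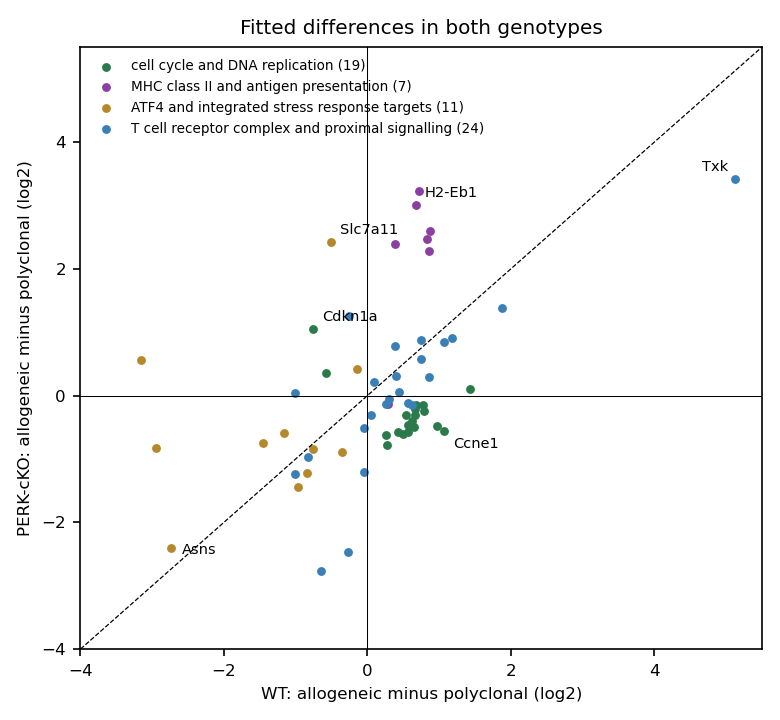
Fitted difference (log2, allogeneic minus polyclonal) in PERK-cKO cells against that in WT cells for members of 4 lists tested in both, with the dashed line marking equal differences. Cell cycle genes other than Cdkn1a and Cdk6 lie below the line, mostly at WT values above 0 and PERK-cKO values below 0, MHC class II genes other than Rfxap lie above it, and Asns lies close to it.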

How the data were processed

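Bulk RNA-Seq of spleen T cells was analysed in 6 PERK-cKO libraries, with 6 WT libraries for the interaction. The authors deposited raw counts of read pairs from featureCounts 2.0.1 on GENCODE M27 (GRCm39) exons, while the submitters' processing notes list mm10, the GRCm38 build. Per the file header, counting ignored strand and left out pairs that mapped to several places or genes, so a gene and its antisense partner cannot be told apart. The aligner is not given in the sources used here. Each entry's printed positions were therefore laid on GRCm38 exons of GENCODE M21, and an entry was counted for a gene where it overlay that gene's exons, and no other's, by 50 bp or more (small RNAs were left aside). Such a count can hold reads from outside the covered exons. Of 53762 entries, 13386 were placed, on 10702 genes. Depth is given with the results. A gene without counts could still make up 3 counts of a library, a limit that covers counting error only.

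Counts were filtered with filterByExpr, normalized by TMM and tested with edgeR 4.0.16 (glmQLFit, glmQLFTest) in R 4.3.3, with Benjamini-Hochberg adjustment at 0.05. The fit used the 6 PERK-cKO libraries, and the interaction all 12. The script was tested on simulated counts. Alternatives were DESeq2 1.42.0, other scalings and filters, the replicate number as a block, each library left out, the entries as listed, entries at least 50% inside exons, and a log2 difference of at least 1. Genes named were Eif2ak3, the study's ERAD genes, the 10 largest increases and decreases among called genes whose groups did not overlap and whose log2 CPM averaged 3 or more, up to 8 members of each list by level and up to 4 by change in each direction, defining markers near 0, and 5 interaction terms each way. Some genes that this rule names are not reported here. Members and lists were chosen with earlier results of these data known. Replicate libraries differed by more than sampling noise (chi-square per degree of freedom 7.68 to 16.2).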

Additional observations from a re-analysis of the deposited data

Results flagged for a closer look

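These results stood out because the allogeneic-minus-polyclonal difference was not the same in PERK-cKO and WT cells by a test of the interaction itself (edgeR, adjusted p under 0.05), which called 1491 of 4402 genes. Of 124 genes named here or in the report and tested for it, 71 were called, 38 with a positive and 33 with a negative term. Terms are on the log2 scale, and a positive one means a more positive difference in PERK-cKO cells. Under scaling to T cell marker genes the median term moved by 0.51, so that negative terms smaller than this in size need not keep their sign. Sex-linked counts and myeloid marker levels differed between the allogeneic libraries of the genotypes, and their part in these terms was not tested.

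Among genes of T cell receptor signalling and T cell markers, the terms were Thy1 -0.60, Lck -0.80, Lat -0.39, Cd6 -2.15, Cd8b1 -2.21, Ptprc -0.49, Sit1 -0.52 and Txk -1.74. Receptors and differentiation factors had terms of Tfrc -0.61, Il2rb -0.87, Tnfrsf9 0.66, Havcr2 -1.33 and Cd86 1.72 and of Nr4a3 -0.58, Zeb2 2.44 and Ikzf2 -0.67. Trafficking, effector and cytokine genes had terms of Ccr2 1.83, Srgn 1.45, Gzme -4.87, Ccl22 0.67, Tnfsf14 1.98 and Il1rn 4.70. The activation receptors thus had terms of both signs.

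Cell cycle genes had terms of Uhrf1 -1.05, Dnmt1 -1.17, Ccne1 -1.66, Cdkn1a 1.77 and Cdk6 0.91. Genes of the ATF4 list had terms of Vldlr 3.69, Slc7a11 2.90, Nupr1 2.09, Slc3a2 0.55, Gars -0.50 and Tars -0.56, and the kinase gene Eif2ak4, in the same list, had one of 0.67. In ERAD and folding the called terms were Sel1l 0.49, Atf6 0.62, Ube2j1 -0.365, Ube2j2 -0.50 and Hyou1 -0.33. Vldlr, Nupr1 and Atf6 were named after their values were seen. Metabolic genes had terms of Mxi1 1.08, Selenbp1 4.52, mt-Cytb -0.52, Uqcrc1 -0.60, Srebf2 -0.59, Abca1 2.50, Me1 2.40 and Gclc -0.67.

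Interferon-stimulated genes had terms of Ddx58 0.55, Irgm2 0.46, Gm1966 7.11, Psmb8 -0.39, Trim30d 12.60, Oas3 1.05 and Trim30c 5.48, and genes of MHC class II and antigen presentation of H2-DMa 1.40, H2-Eb1 2.30, Ctss 1.70 and Rfxap -0.46. Markers of other cells had terms of Clec7a 4.23, Gpnmb 2.65, Hdc 2.23 and Mmp8 7.93. Among genes named for the size of their change or of their term, the terms were Lad1 2.35, Dnah12 -2.24, Gm15133 8.12, Pilrb2 8.06, C3 7.51, Zan -6.54, Scpep1os -3.76, Scg3 -3.69 and Psg20 -3.65. Where a group held no counts, as for Trim30d, Trim30c, Gm15133, Pilrb2 and Gzme, the fitted term depends on the prior count and is no bound. Gm1966 had 18, 25 and 17 counts in the WT allogeneic libraries.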

How the results depend on the processing

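All main calls in PERK-cKO cells that could be tested kept their sign under DESeq2 (1927 of 2139 still called), other scalings, filters and left-out libraries. With each library left out, 1980 to 2070 genes were called in PERK-cKO cells, 1082 to 1142 higher and 881 to 935 lower, and the interaction was called for 1335 to 1426. Under T cell marker scaling 122 of 1491 interaction calls changed sign. A log2 difference of at least 1 left 896 (659 higher, 237 lower) and 717 interaction terms. Entries at least 50% inside exons gave 612 of 1090 (329 higher, 283 lower) and 396 interaction terms, where 2 of 617 main calls tested changed sign. Entries as listed, without placement, gave 4483 (2475 higher, 2008 lower) and 3034 interaction terms, and 329 of 1157 main calls changed sign, as the same symbol then names other positions. Among named genes this reversed Lad1 (0.57), Dnah12 (0.15), Wnt10b (0.19), Spi1 (-0.013), Ctss (-0.31), Stat3 (0.042), Tnfrsf9 (0.48), Havcr2 (-1.87), Stat5a (0.047), Ccl22 (-0.79) and Me1 (-0.34). Genes near 0 changed sign or reached 0 with 1 library left out: Sel1l ran from -0.005 to 0.184, Lat from -0.099 to 0.011, Scpep1os from -0.287 to 0.204 and Atf6 from 0 to 0.102, and these stayed uncalled. Atf6 was also at -0.009 under T cell marker scaling and at -0.038 with entries at least 50% inside exons. Of 1908 values of named genes, 1793 kept direction and call. The cause of these changes was otherwise not tested. Samples with the same replicate number did not deviate together (r = -0.003, -0.093 and 0.026). These values cannot decide whether the numbers pair libraries, as replicates also differed by more than sampling noise. With the replicate block 2029 genes were called (1088 higher, 941 lower) and 1454 interaction terms. Depth limits genes of few counts. Without the filter on low counts 2390 of 7409 genes were called (1328 higher, 1062 lower). With at least 10 counts in every library 1679 of 3383 were called (852 higher, 827 lower).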
